A study of Mus musculus with 7 samples.

Results

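The mature red cell carries a membrane that is held in shape by a protein skeleton, and 8 mouse genes for that membrane, its skeleton and its blood group proteins were followed here in spleen RNA. The genes were taken by name as a list (Slc4a1, Epb42, Sptb, Ank1, Rhd, Rhag, Kel and Ermap), a list that was drawn up with earlier results of these data known although its rule uses no measured value. All 8 were in the count table of 55414 genes, and all 8 passed the low count filter that left 16089 genes to test. The spleens came from mice labelled WT, whose genotype is given as C57BL/6N (n = 3), and from mice labelled Fpr2KO, which lack the formyl peptide receptor gene Fpr2 (n = 4). No treatment is named for either group. The sources used here do not give the strain background of the Fpr2KO mice, the age or sex of either group, or the way the allele was made. Separate animals are not stated for the numbered samples, and every p-value below is one for the spread among these libraries, which may be technical.

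The red cell skeleton is a meshwork of spectrin tetramers under the lipid bilayer. Ankyrin ties the beta chain of spectrin to the anion exchanger of the membrane, and the exchanger, the Rh proteins and several glycoproteins form complexes around these ties. The genes are switched on as erythroblasts mature under the transcription factors GATA1 and KLF1. In the mouse the spleen remains a site of red cell production in adult life, mainly in its red pulp, so a spleen sample holds erythroblasts and reticulocytes among far more numerous lymphocytes. Loss of several of these proteins causes spherocytosis, a fragile and rounded red cell.

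The DNA before the start sites of the 8 genes is shown for those with an entry in the RefSeq promoter table (GRCm38.p6). These were 6 of the 8: Epb42, Sptb, Rhd, Rhag, Kel and Ermap. Capitals mark matches to the GATA motifs AGATAA and TGATAA and to the CACCC-type motif CCNCNCCC bound by KLF1, on either strand. TTATCT and TTATCA are the GATA motifs read on the other strand. The stretches end at the base before the RefSeq start, except for Epb42, which is shown only upstream of the earlier GENCODE start. GENCODE also starts Rhag 23 bases, Ermap 16 bases and Kel 14 bases ahead of RefSeq, so the last bases of these 3 stretches lie inside the GENCODE gene.
Rhd (chr4:134864386-134864535, plus strand): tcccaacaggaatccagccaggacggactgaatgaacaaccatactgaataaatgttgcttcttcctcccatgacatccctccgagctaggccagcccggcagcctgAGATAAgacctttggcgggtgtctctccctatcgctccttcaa
Rhag (chr17:40810999-40811148, plus strand): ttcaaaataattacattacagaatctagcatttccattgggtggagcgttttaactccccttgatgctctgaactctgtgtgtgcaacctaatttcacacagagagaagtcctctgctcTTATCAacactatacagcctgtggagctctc
Kel (chr6:41704326-41704475, minus strand): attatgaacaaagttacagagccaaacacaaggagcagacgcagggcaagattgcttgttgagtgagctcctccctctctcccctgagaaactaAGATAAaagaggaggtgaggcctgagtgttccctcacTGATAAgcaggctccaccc
Ermap (chr4:119189996-119190145, minus strand): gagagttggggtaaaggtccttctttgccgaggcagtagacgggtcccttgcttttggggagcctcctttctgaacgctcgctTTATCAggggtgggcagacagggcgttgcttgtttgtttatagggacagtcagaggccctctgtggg
Epb42 (chr2:121037073-121037127, minus strand): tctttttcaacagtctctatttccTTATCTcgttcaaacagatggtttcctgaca
Sptb (chr12:76710548-76710697, minus strand): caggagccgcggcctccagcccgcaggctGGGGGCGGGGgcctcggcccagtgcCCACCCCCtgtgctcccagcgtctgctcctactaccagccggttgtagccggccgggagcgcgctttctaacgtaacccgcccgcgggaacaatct

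Within the 250 bases before the start, 5 of these 6 windows held AGATAA or TGATAA, as did 16.6% of 32851 such windows of all genes. The match began 43 bases before the RefSeq start in Rhd, 31 in Rhag, 67 in Ermap and 226 in Epb42. GENCODE starts Epb42 195 bases ahead of RefSeq, so the Epb42 match lies much nearer to the GENCODE start. Kel held both motifs, 56 and 19 bases before its start. Sptb held no GATA match but did hold CCNCNCCC, once on the gene's strand and as a pair of overlapping matches on the other, and this looser motif was in 45.9% of all windows. The matches are letters in a window, and binding was not measured. The part of these motifs in the levels below was not tested.

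Total counts ran from 14968605 to 18692809 per library, so depth differed little beside the changes described below. Reads of Fpr2 numbered 537, 479 and 477 in WT and 0 in each Fpr2KO library, in keeping with the genotype labels. All 12 marker genes fixed for spleen lymphocytes and macrophages were present in every library and summed to between 3874 and 4128 CPM (a count relative to the total of its library, scaled between libraries by the TMM method of edgeR). The level sum hides wider changes in single markers, of which 3 are named after their values were seen. Cd4 ran from 75.4 CPM in Fpr2KO replicate 1 to 128 CPM in Fpr2KO replicate 2. Cd209b ran from 25.0 CPM in Fpr2KO replicate 4 to 94.4 CPM in WT replicate 2. Cd5l was steadier, from 221 CPM in Fpr2KO replicate 3 to 258 CPM in WT replicate 2. Pancreatic acinar markers, 9 in all, summed to 646 CPM in Fpr2KO replicate 1 and 394 CPM in Fpr2KO replicate 2, against 23.8 to 48.9 CPM in the other libraries. The sum of 4 adipocyte markers was 8.92 CPM in WT replicate 3, and no other library exceeded 0.782 CPM. Neutrophil markers, 4 in all, summed to between 2457 and 3047 CPM in WT and between 942 and 1775 CPM in Fpr2KO. The part of these cell types in the levels below was not tested, and values without Fpr2KO replicates 1 and 2 are given with the test.

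Slc4a1 encodes the anion exchanger that swaps chloride for bicarbonate and anchors the skeleton (ENSMUSG00000006574, chromosome 11, 102348824 to 102366203, minus strand, GRCm38). It had 1150, 1615 and 165 CPM in WT replicates 1, 2 and 3. In Fpr2KO replicates 1 to 4 it had 1838, 79.5, 532 and 681 CPM. The highest and the lowest value thus both fell in the Fpr2KO group, and the WT values lay between them. The distance from highest to lowest was 23.1-fold, while the counting error was small, as the lowest library still held 1482 reads (95% exact Poisson interval 75.5 to 83.7 CPM). Epb42 (ENSMUSG00000023216, chromosome 2, 121017891 to 121037072) encodes a skeletal protein that binds the exchanger and is related to transglutaminases. Its levels were 145, 182 and 16.99 CPM in WT and 197, 8.91, 60.5 and 70.3 CPM in Fpr2KO. The libraries fell in the same order as for Slc4a1.

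Sptb encodes the erythroid beta chain of spectrin (ENSMUSG00000021061, chromosome 12, 76580488 to 76710547). It had 161, 237 and 35.6 CPM in WT and 250, 20.1, 92.3 and 103 CPM in Fpr2KO. Ank1, the erythroid ankyrin gene (ENSMUSG00000031543, chromosome 8, 22974844 to 23150497), had 103, 147 and 18.5 CPM in WT and 173, 12.7, 61.6 and 73.0 CPM in Fpr2KO. Both followed the same order of libraries over a narrower range, 12.4-fold for Sptb and 13.7-fold for Ank1. Ank1 also has a transcript of skeletal muscle, and 4 muscle markers summed to 5.03, 9.17 and 4.80 CPM in WT and 9.60, 3.86, 5.33 and 4.64 CPM in Fpr2KO. Their sum was thus highest and lowest in the same libraries as Ank1, nearly all of it from Mylpf (3.70 to 9.18 CPM), while the other 3 markers had at most 5 reads in a library, and its part in the Ank1 level was not tested. The antisense gene Gm15816 covers 862 exon bases of Ank1, 6.37% of its exon length, and with the strand setting of the counting not given those reads cannot be told apart.

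The Rh genes encode a pair of related membrane proteins that form 1 complex. Rhd is the mouse counterpart of the human Rh blood group genes (ENSMUSG00000028825, chromosome 4, 134864536 to 134896172) and Rhag encodes the Rh-associated glycoprotein, which belongs to the ammonium transporter family and is needed for the complex to reach the surface (ENSMUSG00000023926, chromosome 17, 40811126 to 40840754). Rhd had 130, 213 and 22.9 CPM in WT and 226, 10.1, 80.3 and 85.5 CPM in Fpr2KO. Rhag had 97.3, 168 and 16.4 CPM in WT and 202, 9.50, 67.4 and 62.9 CPM in Fpr2KO. Their ranges were 22.5-fold and 21.3-fold, close to that of Slc4a1.

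Kel and Ermap carry blood group antigens. Kel encodes the Kell glycoprotein, a zinc endopeptidase (ENSMUSG00000029866, chromosome 6, 41686330 to 41704339), and had 92.2, 106 and 12.6 CPM in WT and 142, 8.16, 44.3 and 46.8 CPM in Fpr2KO. Ermap encodes the Scianna antigen, an erythroid adhesion protein with a butyrophilin-like structure (ENSMUSG00000028644, chromosome 4, 119175457 to 119190011), and had 159, 205 and 34.7 CPM in WT and 248, 20.8, 94.97 and 94.1 CPM in Fpr2KO. Kel spanned 17.4-fold and Ermap 11.9-fold. In both genes the Fpr2KO libraries lay above, below and between the WT libraries.

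**Figure D1:**
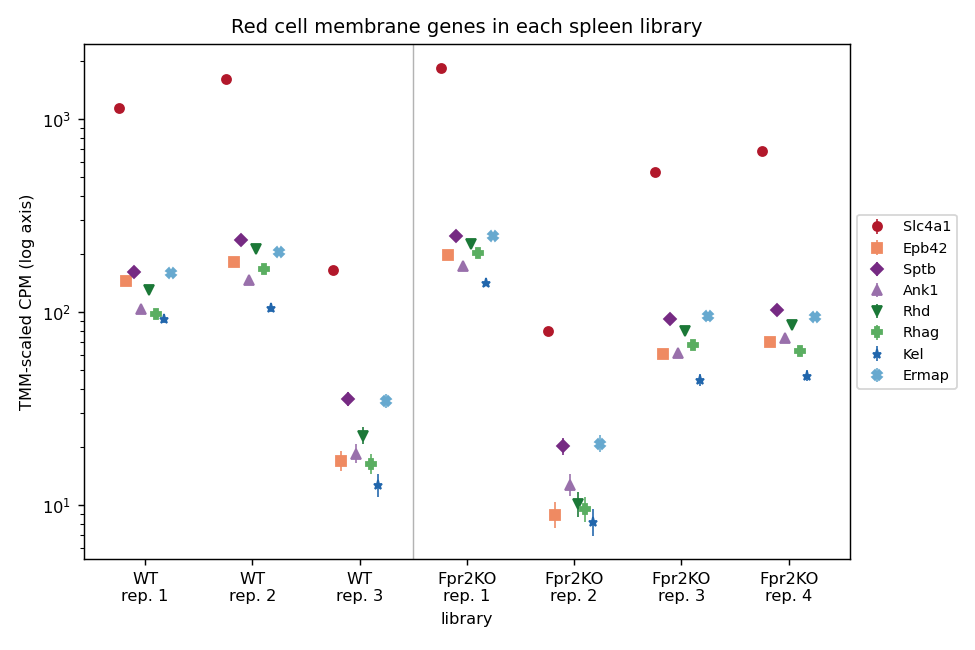
TMM-scaled CPM on a log axis for the 8 genes in each of the 7 libraries, with 95% exact Poisson counting intervals as bars where they exceed the symbol. All 8 genes are highest in Fpr2KO replicate 1 and lowest in Fpr2KO replicate 2, with WT replicate 3 next to lowest.

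All 8 genes ranked the libraries alike. Each was highest in Fpr2KO replicate 1, then in WT replicate 2 and WT replicate 1, and each was lowest in Fpr2KO replicate 2 and next to lowest in WT replicate 3. Between these lay Fpr2KO replicates 3 and 4, whose order was the only point of difference. Replicate 3 was the higher of the pair in 2 genes, Rhag and Ermap, and replicate 4 in the other 6. Measured as log2 CPM around each gene's own mean, the 8 genes together stood at 1.62 in Fpr2KO replicate 1, 1.41 in WT replicate 2, 0.91 in WT replicate 1, 0.18 in Fpr2KO replicate 4 and 0.05 in Fpr2KO replicate 3. They stood at -1.67 in WT replicate 3 and -2.50 in Fpr2KO replicate 2. In a whole-tissue sample fewer erythroid cells and less of these transcripts per cell cannot be told apart.

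Per kilobase of exon, Slc4a1 was the most abundant of the 8, at 177 ± 141 CPM per kb over all libraries (SD, n = 7). Rhd followed at 68.8 ± 53.5 CPM per kb and Rhag at 38.1 ± 31.1 CPM per kb. Slc4a1 exceeded Rhd, and Rhd exceeded Rhag, in all 7 libraries, although the SDs between libraries overlap widely. Kel at 23.3 ± 18.1 CPM per kb and Ermap at 23.1 ± 16.1 CPM per kb could not be ordered, since Kel was the higher in only 2 of 7 libraries. Epb42 (17.9 ± 14.2 CPM per kb) lay above Sptb (10.6 ± 7.51 CPM per kb) in 6 of 7 libraries, and Ank1 was lowest at 6.22 ± 4.50 CPM per kb. These levels use the union of GENCODE M21 exons as the length, so a gene with long exons that few of its transcripts use is set lower than its main transcript would be.

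None of the 8 genes passed the test between genotypes. In edgeR's quasi-likelihood test 0 of 8 were called at an adjusted p under 0.05, against 0.0373% of all genes tested (6 of 16089), and 0 of 8 had an unadjusted p under 0.05, against 4.98% of all genes. DESeq2 and limma-voom also called 0 of the 8. No gene had groups that did not overlap, against 5.91% of all genes. Slc4a1 had 977 ± 740 CPM in WT (SD, n = 3) and 783 ± 749 CPM in Fpr2KO (n = 4), which edgeR fitted as a log2 fold change of -0.32 with an SE of 1.17 (adjusted p = 1.0). The median log2 fold change of the 8 was -0.25, beside -0.0049 for all genes tested. The fitted values ran from -0.44 for Epb42 to -0.14 for Rhag, and the difference was smaller than the spread between libraries for each gene.

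The data leave a wide range of differences possible. The 95% interval of the Fpr2KO to WT ratio from the edgeR fit was 0.103 to 6.23 for Slc4a1, 0.0951 to 5.68 for Epb42, 0.146 to 4.43 for Sptb and 0.149 to 5.38 for Ank1. It was 0.113 to 6.02 for Rhd, 0.121 to 6.83 for Rhag, 0.126 to 5.86 for Kel and 0.162 to 4.57 for Ermap. A difference of several-fold in either direction would thus not have been detectable in 3 against 4 libraries that vary this much. Single libraries set the sign: leaving out Fpr2KO replicate 1 gave a median of -1.02 and leaving out WT replicate 3 one of -0.74. The median turned positive on leaving out WT replicate 2 (0.25) or Fpr2KO replicate 2 (0.12), and 0 of the 8 were called in any of these fits. Without both Fpr2KO replicates 1 and 2, the libraries with pancreatic transcripts, it was -0.55 and 0 of the 8 were called.

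**Figure D2:**
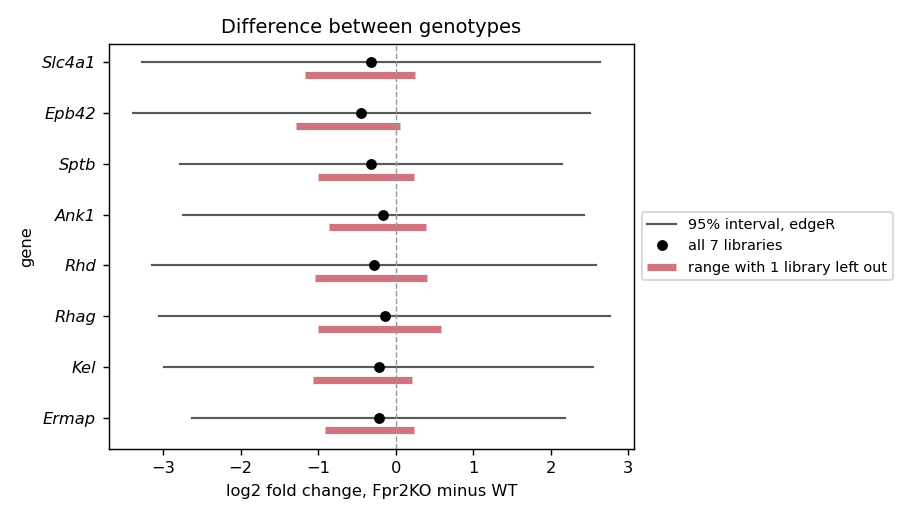
Log2 fold change of each gene, Fpr2KO minus WT, with its 95% interval from the edgeR fit (black) and the range of the fitted value when each of the 7 libraries is left out in turn (red). Every interval and every range contains 0.

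The 8 genes varied more within a genotype than nearly all other genes. The SD of log2 CPM within genotypes was 1.85 for Slc4a1, 1.87 for Epb42, 1.81 for Rhd, 1.79 for Rhag, 1.70 for Kel, 1.58 for Ank1, 1.48 for Sptb and 1.44 for Ermap. The median over all tested genes was 0.193. Only 90 of 16089 genes, or 0.559%, had an SD at least as large as that of Ermap, and these 90 include the 8. Among the WT libraries, whose acinar markers were low, replicate 2 exceeded replicate 3 by 5.90-fold for Ermap and 10.7-fold for Epb42, with the other 6 genes in between. The acinar markers summed to 48.9 and 23.8 CPM in these libraries, and WT replicate 3 is the one with the adipocyte markers (8.92 CPM), whose part in the spread was not tested.

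**Figure D3:**
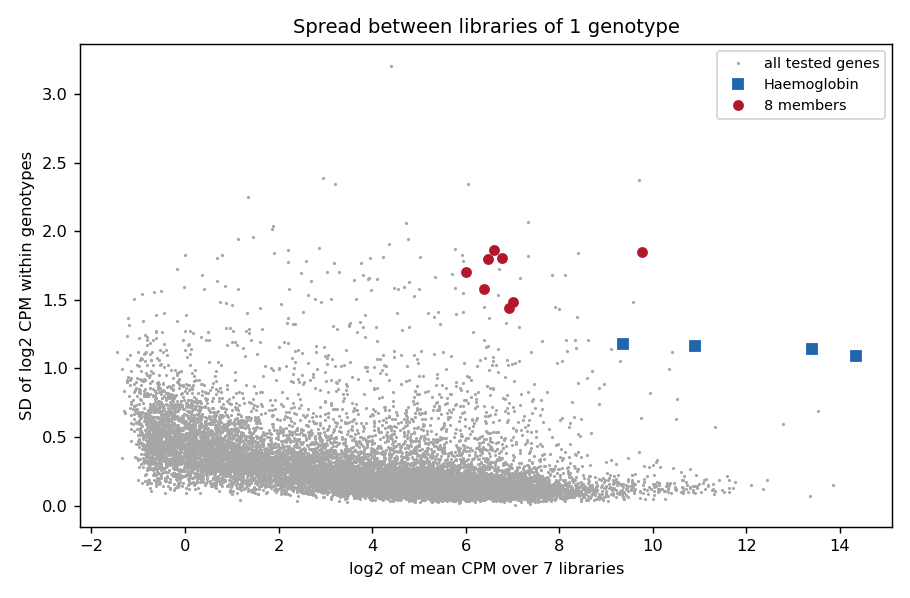
SD of log2 CPM within genotypes (vertical axis) against the log2 of the mean CPM over 7 libraries (horizontal axis) for all 16089 tested genes, with the 8 genes in red and the 4 tested haemoglobin genes in blue. The 8 genes lie between 1.44 and 1.87 on the vertical axis, where the median of all tested genes is 0.193.

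Among themselves the 8 genes differed far less than they moved. The root mean square difference between 2 genes' centred log2 CPM over the 7 libraries was 0.226 at the median of the 28 pairs, while the mean of the 8 moved with an SD of 1.55 over the libraries. The closest pairs were Sptb with Ermap (0.0876) and Slc4a1 with Epb42 (0.0924), and the farthest was Epb42 with Ermap (0.388). Sptb, Ermap and Ank1 formed the side with the narrower range, and Slc4a1, Epb42, Rhd and Rhag the side with the wider one. Slc4a1 accordingly made up 56.4% of the summed CPM of the 8 at most and 46.8% at least. Ermap made up 7.13% at least and 12.3% at most. Between genotypes the largest gap in fitted change was that of Epb42 and Rhag. Their ratio was 1.49, 1.08 and 1.04 in WT and 0.976, 0.938, 0.898 and 1.12 in Fpr2KO, so the groups overlapped here too, with WT replicate 1 standing highest.

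Other genes of the membrane skeleton ranged from a span as wide as that of the 8 to none. From a list of 16 partners, all of them tested, 0 passed edgeR's test in either direction, with a median log2 fold change of -0.14. To describe the span, levels in Fpr2KO replicate 1 were divided by those in replicate 2, the libraries in which the 8 genes were highest and lowest, so that their own ratio of 11.9 to 23.1 follows from that choice. Of the partners, 5 of 16 had a ratio of at least 10. Among them were Dmtn (22.7), the actin-bundling dematin gene, and Add2 (15.0) and Tmod1 (16.7), which encode actin-capping proteins and were named after their values were seen. Epb41, whose protein joins spectrin to actin, had a ratio of 3.33. The cytoskeletal genes Actb (0.987), Tpm3 (0.987) and Add3 (0.965), which other spleen cells also express, were level between these libraries.

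Blood group and transport genes also behaved unevenly. Of 19 such genes, all tested, 0 passed edgeR's test, and the median log2 fold change was -0.08. The ratio was at least 2 in 9 of 19, against 10 of 16 skeleton partners. It was at least 10 in 1 of 19, against 5 of 16 partners. Over all tested genes the median ratio was 1.00, and the share at or above these bounds was not counted. The water channel gene Aqp1, which carries the Colton antigen, had a ratio of 7.45, and the adhesion gene Icam4, named after its values were seen, 11.1. Bsg, the Ok antigen gene, was at 2.21, while Cd44 (0.991) and the mechanosensitive channel gene Piezo1 (1.05) were level. Relatives of the 8 genes that serve other cells gave no such span. Among 17 tested of 20, which include Sptan1 (0.744), Sptbn1 (0.7997) and Slc4a7 (0.803), the ratios ran from 0.663 to 1.55 and 0 passed edgeR's test. Slc4a3, the anion exchanger relative with the smallest p of that list, had a log2 fold change of 0.41 (edgeR adjusted p = 1.0). Between WT replicates 2 and 3 the median ratio was 8.84 for the 8 genes, 2.62 for the skeleton partners, 1.60 for the blood group and transport genes and 0.907 for the relatives.

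**Figure D4:**
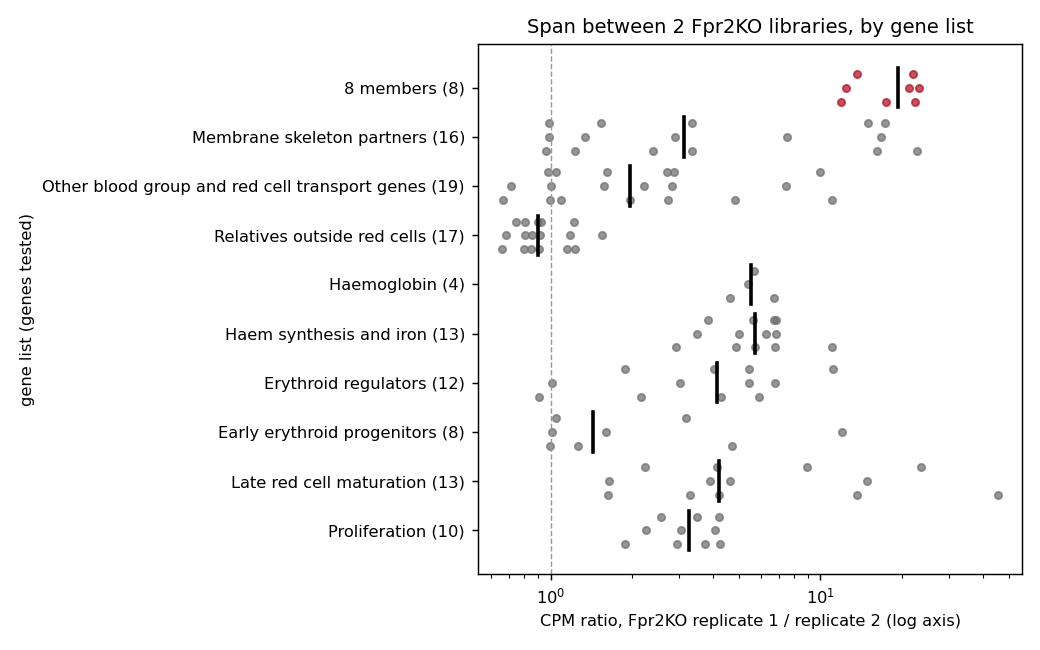
Ratio of the CPM in Fpr2KO replicate 1 to that in Fpr2KO replicate 2, on a log axis, for each tested gene (points) by list, with list medians as bars. The 8 genes run from 11.9 to 23.1, the haemoglobin genes from 4.61 to 6.74 and the relatives outside red cells from 0.663 to 1.55.

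Haemoglobin transcripts followed the same libraries over a smaller range and in a slightly different order. Of 9 genes listed, 8 were matched by symbol and 4 were tested, with 0 passing edgeR's test and a median log2 fold change of -0.85. The alpha-globin genes, and likewise the beta-globin genes, are near-identical copies whose reads the counting could split, so their sum is used. These 4 summed to 39438, 86313 and 14161 CPM in WT and to 47066, 9551, 17782 and 23349 CPM in Fpr2KO. The highest library was WT replicate 2 rather than Fpr2KO replicate 1, and the range was 9.04-fold, against 19.3-fold for the sum of the 8 membrane genes. For every 100 haemoglobin CPM there were 5.17, 3.33 and 2.28 CPM of the 8 genes in WT and 6.96, 1.78, 5.81 and 5.21 CPM in Fpr2KO. The low ratios were thus those of WT replicate 3 and Fpr2KO replicate 2, the libraries with least of both. The mean was 3.59 ± 1.46 in WT (SD, n = 3) and 4.94 ± 2.23 in Fpr2KO (n = 4), and the groups overlapped. With the haemoglobin level as a covariate, 0 of the 8 were called and every fitted log2 fold change was positive, from 0.62 for Sptb to 1.01 for Rhag (lowest edgeR adjusted p = 0.744).

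Genes of haem synthesis and erythroid control moved less than the membrane genes. In the haem and iron list 0 of 13 passed edgeR's test, with a median log2 fold change of -0.16. The ratio between Fpr2KO replicates 1 and 2 was 5.01 for Alas2, the first enzyme of haem synthesis in red cells, 6.73 for Fech, which inserts the iron, 6.79 for the mitochondrial iron importer gene Slc25a37 and 6.86 for the transferrin receptor gene Tfrc. Among 12 erythroid regulators 0 passed and the median was -0.04. The adaptor gene Lmo2 had a ratio of 2.17 and E2f2, a cell cycle factor of erythroblasts, one of 4.02, while Ldb1 (1.01) and Bcl11a (0.903), which lymphocytes also express, were level. Proliferation genes, with 0 of 10 passing and a median log2 fold change of -0.12, followed at lower amplitude: Mki67 had a ratio of 3.49, Ccna2 one of 3.74, Bub1 one of 2.26 and Top2a one of 1.89.

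**Figure D5:**
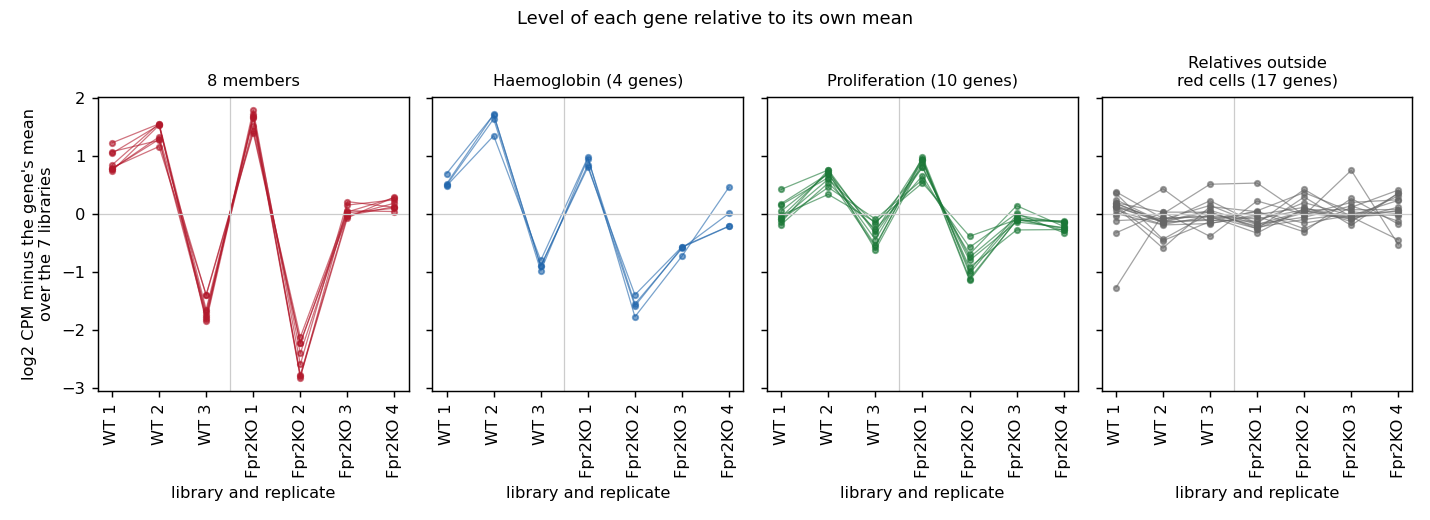
Log2 CPM minus each gene's mean over the 7 libraries (vertical axis), by library, for the 8 genes, 4 haemoglobin genes, 10 proliferation genes and 17 relatives outside red cells (1 line a gene). The 8 genes run from 1.62 in Fpr2KO replicate 1 to -2.50 in Fpr2KO replicate 2 on average, the haemoglobin genes peak in WT replicate 2, and the relatives scatter around 0.

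The genes most like the 8 in their pattern were found by the root mean square difference between a gene's centred log2 CPM and the mean of the 8, over 7 libraries. The 10 nearest, leaving out genes without a proper name, included Tspan8 (0.130), Pkhd1l1 (0.138), Slfn14 (0.146), Dmtn (0.151), Trim10 (0.155), Tspo2 (0.158), Hemgn (0.169) and Sowaha (0.171). The values of the 8 themselves ran from 0.107 for Kel to 0.218 for Ermap. Each of the 8 is part of the mean it is set against, which lowers its own value. Hemgn had 219, 305 and 34.0 CPM in WT and 335, 14.2, 100.2 and 117 CPM in Fpr2KO, and its libraries fell in the same order as those of Slc4a1. Only 28 of 16089 genes, the 8 included, lay as near as Ermap. The genes named here span a range of levels, from Hemgn at 186 ± 138 CPM in WT (SD, n = 3) to Tspan8 at 16.0 ± 12.6 CPM.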

How the data were processed

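Polyadenylated RNA of mouse spleen was sequenced from 3 WT and 4 Fpr2KO samples. The authors deposited raw read counts per Ensembl gene. The submitters' processing notes name HTSeq 0.10.0, FastQC 0.10.1 and the mouse build mm10 (GRCm38). An aligner, annotation release or strand setting is not given in the sources used here. Symbols, positions and exon lengths came from GENCODE M21 (GRCm38), which matched 52081 of 55414 gene IDs and 99.82% of counts.

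Counts were fitted with edgeR 4.0.16 in R 4.3.3 (quasi-likelihood F test, robust estimation, TMM, filterByExpr defaults) and adjusted by Benjamini-Hochberg over 16089 genes. Log2 CPM used a prior count of 2. Exact Poisson intervals cover counting error only, as no molecular identifiers mark the reads. In data simulated for this comparison (15894 genes) the step recovered 26%, 60%, 94% and 88% of 50 genes each changed 1.5-, 2-, 3- and 4-fold, with 5 false calls among 139. These shares are over all the changed genes at each fold and do not give the recovery to be had for the membrane genes. The SD of log2 CPM within genotypes was lowest for Ermap among the membrane genes, at 1.44. The median over all tested genes was 0.193. Alternatives were other scalings, DESeq2 1.42.0, limma-voom (limma 3.58.1), other filters, single libraries left out, a replicate block, robust estimation off and a haemoglobin covariate. A fit without Fpr2KO replicates 1 and 2 was added after seeing the data.

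The 8 genes and the 9 comparison lists were chosen with earlier results of these data known. Named beside the 8 were, from each list, the 3 genes with the highest mean CPM and the 2 with the smallest p, and the 10 genes of most similar pattern. A gene outside this rule is marked where it is named. Some genes that the rule names are not reported here.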

Additional observations from a re-analysis of the deposited data

Results flagged for a closer look

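In the group of 4 Fpr2KO libraries, 61 values were examined for 1 library standing apart from the other 3, by the gap to its neighbour over the whole range, a rule that chance meets about 1 time in 20. No membrane gene met it, and 2 other genes did. Tmod3, the widely expressed relative of the red cell tropomodulin gene Tmod1, had 207.8 CPM in Fpr2KO replicate 1 against 231.7 to 232.5 CPM in the other 3 libraries. Cpa3, a protease gene of mast cells and basophils on the list of early progenitor genes, had 3.36 CPM in Fpr2KO replicate 1 against 2.09 to 2.24 CPM in the other 3, and 3.75, 8.19 and 4.99 CPM in WT. The Cpa3 values of the groups did not overlap, but its log2 fold change of -1.19 had an adjusted p of 0.541 in edgeR and so was not called.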

How the results depend on the processing

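The count of 0 called among the 8 genes held in all 18 alternatives, in which the lowest adjusted p of any of the 8 was 0.744. Of 144 refitted values of the 8 genes, 119 kept the direction of the main comparison and 25 changed it. With 1 library left out, the log2 fold change ran from -1.17 to 0.25 for Slc4a1, -1.29 to 0.0582 for Epb42, -0.999 to 0.24 for Sptb and -0.85 to 0.40 for Ank1. It ran from -1.05 to 0.40 for Rhd, -1.0 to 0.59 for Rhag, -1.07 to 0.21 for Kel and -0.91 to 0.24 for Ermap, in each case lowest without Fpr2KO replicate 1 and highest without WT replicate 2. The cause was not tested. With the haemoglobin covariate the values were 0.76 for Slc4a1, 0.69 for Epb42, 0.62 for Sptb, 0.87 for Ank1, 0.83 for Rhd, 1.01 for Rhag, 0.78 for Kel and 0.65 for Ermap, with a median of 0.77, because that fit sets them against haemoglobin. Each of the 3 other scalings gave a median of -0.24. Without Fpr2KO replicates 1 and 2 the median was -0.55.

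The count over all genes was 6, and it was 60 with DESeq2, 21 with no low count filter, 12 with the haemoglobin covariate and between 5 and 15 with 1 library left out. With the replicate block it was 2, the median of the 8 was -0.17 and Rhag was at 0.0893. The labels do not say that equal numbers share an origin, so the numbers were not taken as pairs. The deviations of same-numbered libraries from their group means correlated at 0.0778, -0.434 and -0.0733 across genes. Those of differently numbered libraries correlated at between -0.44 and 0.436. Deviations within a group are tied to one another, so these values cannot show whether equal numbers share an origin. The block moved no call among the 8. The lowest count of any of the 8 in a library was 152.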

Other observations

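Late genes of red cell maturation ranged widely in their level in WT replicate 2 relative to Fpr2KO replicate 1. In edgeR's test 0 of 13 listed genes passed, with a median log2 fold change of -0.39. In 8 of the 13 the level was higher in WT replicate 2 than in Fpr2KO replicate 1. The same held for 4 of 4 haemoglobin genes and 0 of the 8 membrane genes. These 2 counts follow from the choice of libraries, since WT replicate 2 was highest for each haemoglobin gene and Fpr2KO replicate 1 for each membrane gene. Among the other lists it held for 3 of 13 haem and iron genes, 0 of 10 proliferation genes and 8 of 17 relatives outside red cells. It also held for 4 of 16 skeleton partners, 7 of 19 blood group and transport genes, 4 of 12 erythroid regulators and 3 of 8 early progenitor genes. The share over all tested genes was not counted. Bpgm, the gene of the enzyme that makes bisphosphoglycerate in red cells, was 2.08 times as high in WT replicate 2, beside 1.88 for the beta-globin gene Hbb-bs, 1.83 for the alpha-globin gene Hba-a1 and 1.86 for Alas2. The mitophagy receptor gene Bnip3l was at 1.41 and Prdx2, a peroxidase gene, at 1.03. Hemgn, an erythroid nuclear protein gene, was at 0.909, within the range of 0.743 (Kel) to 0.952 (Sptb) of the membrane genes. These are comparisons of single libraries, with no replicate check.

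Genes of earlier progenitors did not follow the membrane genes as a list. Of 8 tested genes 0 passed edgeR's test, and the median log2 fold change was -0.04. The unadjusted p was under 0.05 for 1 of them, Cpa3 (log2 fold change -1.19, edgeR adjusted p = 0.541). Kit, the stem cell factor receptor gene, had a ratio of 1.01 between Fpr2KO replicates 1 and 2, against 12.1 for the carbonic anhydrase gene Car2. Car1, a carbonic anhydrase gene of erythroid progenitors, had 123, 204 and 66.8 CPM in WT and 303, 95.5, 265 and 162 CPM in Fpr2KO (log2 fold change 0.65, edgeR adjusted p = 1.0). Its level in Fpr2KO replicate 3 was close to that in replicate 1, whereas Slc4a1 was at 532 CPM in replicate 3 and 1838 CPM in replicate 1.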
